A study of Mus musculus with 24 samples.

Results

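The genes described here are 44 components of the Wnt pathway, out of 51912 genes in the RNA-seq count tables of mouse embryonic stem cells and neuronal progenitors. They were chosen by name and are 19 Wnt ligands, 10 Frizzled receptors, 7 secreted antagonists, 4 genes of the R-spondin branch (3 R-spondins and Lgr5) and 4 nuclear or feedback genes (Tcf7, Tcf7l1, Lef1 and Axin2). The study asked whether pioneer transcription factors lower DNA methylation at their binding sites, and measured RNA in 3 groups of 3 libraries each. ESC are wild type embryonic stem cells of the strain C57BL/6 X 129S5. NP are neuronal progenitors made from them, with the same genotype and strain, by growing the cells as floating aggregates, adding retinoic acid for the last part of the culture and collecting the aggregates. TET TKO are embryonic stem cells with a TET1/2/3 triple knockout, of the strain C57BL/6 X 129/sv. The TET TKO cells differ from ESC in strain as well as in genotype, and these differences cannot be told apart in that comparison.

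Wnt proteins are secreted lipid-bearing signals that bind Frizzled receptors together with LRP5 or LRP6 on the receiving cell. In the canonical branch, this stops the destruction of beta-catenin, which then enters the nucleus and joins the TCF/LEF factors at target genes such as Axin2, while other branches act on cell polarity and movement. The pathway sustains self-renewal in mouse embryonic stem cells, and in the embryo it patterns the neural tube from dorsal to ventral and from front to back.

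The libraries held 20570050 to 23976914 counts in ESC, 20519702 to 22132988 in NP and 80704741 to 93210102 in TET TKO. Tet1, which encodes the main methylcytosine dioxygenase of embryonic stem cells, stood at 68.9, 62.4 and 69.6 RPKM (reads scaled for gene length and library size) in the ESC libraries and at 12.7, 15.3 and 10.9 RPKM in the TET TKO libraries. Tet2 stood at 21.4, 20.8 and 16.4 RPKM in ESC and at 2.32, 2.57 and 2.23 RPKM in TET TKO, and Tet3 was below 1 RPKM in both groups. Both Tet1 and Tet2 were thus lower in the libraries labelled as knockout, in which RNA of both remained. Of 7 pluripotency markers, all 7 were at 1 RPKM or more in ESC and in TET TKO, and all 7 were called lower in NP, where all 8 neural progenitor markers were called higher. The NP libraries also held RNA of genes listed as markers of other lineages. In NP, 6 of 7 endoderm markers were at 1 RPKM or more. The 7 summed to 21.6 to 26.0 RPKM there, against 1.37 to 2.52 RPKM in ESC. Foxa2 was the largest part of this NP sum, at 10.9, 8.49 and 11.4 RPKM, and Afp was under 1 RPKM. The 6 mesenchyme markers summed to 28.4 to 130.6 RPKM in NP, with 4 of them at 1 RPKM or more, against 2.25 to 6.41 RPKM in ESC. Acta2 made up most of this NP sum, and none of the 4 mesenchyme markers tested was called. Only Meox1 of the 6 mesoderm markers was at 1 RPKM or more in NP. The 4 trophoblast markers summed to 10.1 to 13.7 RPKM in NP and 0.542 to 0.612 RPKM in ESC, with Krt7 called higher and Tpbpa at 0 counts in both. Most of this NP sum was Krt7, at 11.7, 9.61 and 8.22 RPKM. The 4 neural crest markers summed to 6.21 to 10.8 RPKM in NP and 17.3 to 26.5 RPKM in ESC. Most of the ESC sum was Foxd3, at 21.4, 24.85 and 16.5 RPKM. Foxd3 was called lower in NP, at 2.95, 1.86 and 1.33 RPKM. Tfap2b, with 0 counts in ESC, was called higher and stood at 4.73, 2.71 and 4.83 RPKM in NP. Tfap2a was above ESC in every NP library but not called, and Sox10 was under 1 RPKM in both groups. In these bulk libraries, fewer cells of a type and less RNA per cell cannot be told apart, and which cells of the aggregates carried the Wnt RNA was not tested.

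The pathway genes include 4 pairs of Wnt ligands that are close neighbours in the genome (GRCm38, gene models of Ensembl 89). Wnt10b (chr15:98771753-98778150) and Wnt1 (chr15:98789857-98793837) lie 11706 bases apart and point away from each other, as do Wnt3a (chr11:59248033-59290752) and Wnt9a (chr11:59306928-59333552), 16175 bases apart, and Wnt9b (chr11:103727364-103749821) and Wnt3 (chr11:103774150-103817957), 24328 bases apart. Wnt6 (chr1:74771892-74785322) and Wnt10a (chr1:74791516-74804179) lie 6193 bases apart and point the same way. The promoter sequences of the first and the second pair are shown because all 4 of these genes were called higher in NP, and those of the receptor Fzd5 and the antagonist Sfrp5 because they were called lower, in NP and in TET TKO respectively. Each run gives the 240 bases from 250 to 11 before the annotated start, 5′ to 3′ on the strand of the gene, from RefSeq on GRCm38.p6, with every CpG in capitals.
Wnt10b, chr15:98778161-98778400, reverse strand: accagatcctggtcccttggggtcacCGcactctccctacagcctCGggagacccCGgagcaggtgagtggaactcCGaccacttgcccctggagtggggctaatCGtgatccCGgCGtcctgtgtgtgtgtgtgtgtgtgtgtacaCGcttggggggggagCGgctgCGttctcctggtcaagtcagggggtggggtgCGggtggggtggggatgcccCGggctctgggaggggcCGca
Wnt1, chr15:98789607-98789846, forward strand: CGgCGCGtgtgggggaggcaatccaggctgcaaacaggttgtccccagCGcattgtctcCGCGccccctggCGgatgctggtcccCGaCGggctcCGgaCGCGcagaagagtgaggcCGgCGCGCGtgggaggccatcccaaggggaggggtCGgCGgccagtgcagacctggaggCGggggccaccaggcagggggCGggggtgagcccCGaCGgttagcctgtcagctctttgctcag
Wnt3a, chr11:59290762-59291001, reverse strand: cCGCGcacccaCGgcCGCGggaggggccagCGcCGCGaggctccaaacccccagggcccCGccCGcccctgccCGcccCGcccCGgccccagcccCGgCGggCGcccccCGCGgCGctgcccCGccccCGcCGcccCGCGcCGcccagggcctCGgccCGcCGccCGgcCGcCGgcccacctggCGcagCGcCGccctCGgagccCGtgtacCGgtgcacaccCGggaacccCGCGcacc
Wnt9a, chr11:59306680-59306919, forward strand: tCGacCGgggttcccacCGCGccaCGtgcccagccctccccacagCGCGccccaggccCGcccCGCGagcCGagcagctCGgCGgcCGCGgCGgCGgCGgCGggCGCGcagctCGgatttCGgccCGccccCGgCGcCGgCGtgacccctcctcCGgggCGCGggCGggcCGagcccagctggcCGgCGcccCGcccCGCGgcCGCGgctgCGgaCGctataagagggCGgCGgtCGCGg
Fzd5, chr1:64737761-64738000, reverse strand: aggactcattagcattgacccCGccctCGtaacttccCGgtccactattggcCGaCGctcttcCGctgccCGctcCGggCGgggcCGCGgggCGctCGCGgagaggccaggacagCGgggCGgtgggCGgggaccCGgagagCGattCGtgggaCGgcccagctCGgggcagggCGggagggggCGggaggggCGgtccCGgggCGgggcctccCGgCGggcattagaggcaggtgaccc
Sfrp5, chr19:42202263-42202502, reverse strand: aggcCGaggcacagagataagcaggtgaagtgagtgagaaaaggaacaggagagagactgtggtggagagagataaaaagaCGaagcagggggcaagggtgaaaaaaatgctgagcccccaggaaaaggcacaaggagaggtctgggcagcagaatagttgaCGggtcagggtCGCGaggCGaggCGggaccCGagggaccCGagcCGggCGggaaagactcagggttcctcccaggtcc

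These stretches hold 13, 22, 40, 46, 29 and 11 CpGs in the order shown, the fewest in Sfrp5 and the most in Wnt9a. Over windows of 300 bases around the start (250 before and 50 after), 37 windows of 30 of the 44 genes were matched in the RefSeq table, with a median of 26 CpGs and a range of 4 to 58, and the median of all 32851 windows was 7 CpGs. The 17 windows of the 15 genes called higher in NP had a median of 31 CpGs. The 10 windows of 8 genes that were tested and not called had 31.5. The 9 windows of 6 genes too low to be tested had 10. Several of these 9 were starts of Lef1, with 5 to 21 CpGs, while Wnt2 and Wnt9b among them had 27 and 29. Windows of 1 gene are not independent, so these medians do not compare genes. The sequence CTTTGAT, the core bound by TCF/LEF factors, was looked for on both strands and was in 2 of the 37 windows (5.405%), 1 of Wnt11 and 1 of Wnt5b, and in 3.729% of all windows. The Axin2 window held none. Methylation of these promoters was not analysed here.

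**Figure D1:**
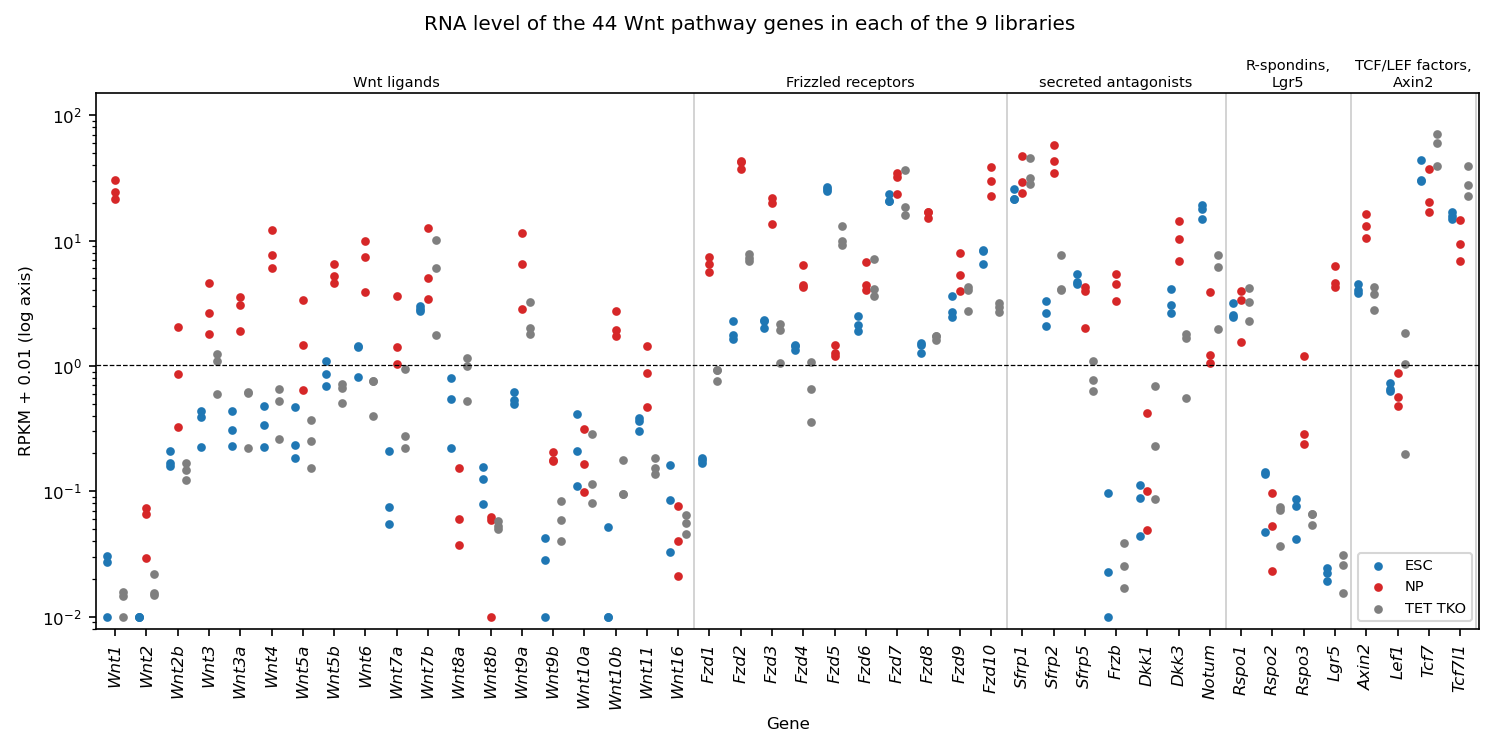
Level of each of the 44 genes in each library, as RPKM + 0.01 on a log axis, with 3 points per group (ESC blue, NP red, TET TKO grey) and the genes ordered by role. The dashed line marks 1 RPKM. Most Wnt ligands lie below that line in ESC and TET TKO and 12 of 19 are above it on average in NP, while of the 10 Frizzled genes 9 are above it on average in ESC, 10 in NP and 8 in TET TKO.

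Levels are compared between genes only as RPKM, which divides by gene length. With a group mean of 1 RPKM as the limit, which the study used to part low from high expression, 20 of the 44 genes were at or above it in ESC, 33 in NP and 19 in TET TKO. Most of the genes gained in NP were ligands, of which 2 of 19 (Wnt6 and Wnt7b) reached the limit in ESC, 12 in NP and 2 (Wnt7b and Wnt9a) in TET TKO. In ESC the highest of the 44 genes was Tcf7, at 29.8, 30.7 and 43.9 RPKM, which did not overlap with the next gene, Fzd5. Fzd5, Sfrp1 and Fzd7 followed with overlapping libraries, and Notum and Tcf7l1 came after them. In NP the order was led by Sfrp2, Fzd2, Sfrp1, Fzd10, Fzd7 and Wnt1, from 45.1 ± 11.6 to 25.4 ± 4.6 RPKM (SD, n = 3), and each of these overlapped with its neighbour in the order. In TET TKO it was led by Tcf7, Sfrp1, Tcf7l1 and Fzd7, each of which overlapped with the next of them.

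The summed level of the 19 ligands was 9.21, 9.06 and 6.79 RPKM in the ESC libraries and 84.7, 79.5 and 59.9 RPKM in the NP libraries, with no overlap. The TET TKO libraries stood at 7.97, 13.9 and 19.3 RPKM, which overlapped with ESC. The makeup of the ligand sum differed as well. Wnt7b, a ligand of the developing brain and lung, held on average the largest share in ESC, 34.6% ± 4.7 of the summed ligand RPKM (SD, n = 3), and in TET TKO, 39.1% ± 15.5, where Wnt9a exceeded it in library 1. In NP, Wnt1 held 34.5% ± 7.0, followed on average by Wnt4 with 11.4% ± 3.4, although Wnt7b held more than Wnt4 in library 1. Frizzled RNA summed to 65.4 to 68.9 RPKM in ESC and 148.1 to 177.0 RPKM in NP. Fzd5 and Fzd7 held 38.2% ± 0.8 and 32.2% ± 1.9 of it in ESC. In NP Fzd5 held 0.818% ± 0.118, and Fzd2, Fzd10 and Fzd7 held 25.7% ± 1.8, 18.9% ± 3.6 and 18.8% ± 2.6. With 3 libraries against 3, an exact permutation test of a sum cannot go below 0.1, so none was run on sums or shares.

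**Figure D2:**
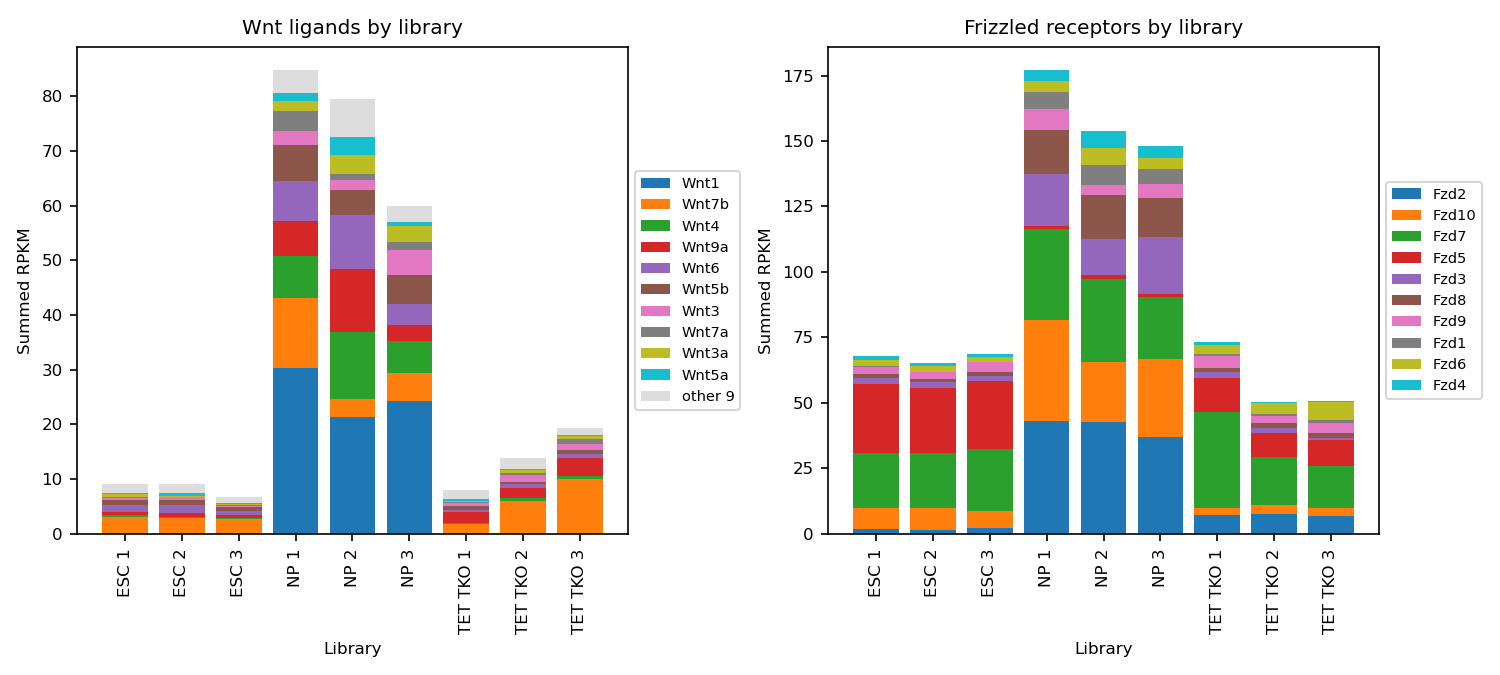
Summed RPKM of the Wnt ligands (left) and of the Frizzled receptors (right) in each of the 9 libraries, stacked by gene with the 10 highest genes named. Wnt1 fills 34.5% of the NP ligand bars on average and is not visible in ESC, and the large Fzd5 segment of the ESC bars shrinks to 0.818% in NP.

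NP were then compared with ESC gene by gene. Genes were tested where at least 1 of the 6 libraries reached 1 RPKM, by edgeR's quasi-likelihood F-test over 15197 genes, and a gene was called where its fold was 3 or more and its p, adjusted by Benjamini-Hochberg, was under 0.001. Adjusted p-values below come from this test unless another tool or filter is named. Of the 44 Wnt pathway genes, 35 were tested, 19 were called higher in NP, 2 were called lower, 14 were not called, and 9 were not tested. Over all genes tested, 12.4% were called higher and 9.98% lower. The median log2 fold change was 2.65 over the 35 genes and 0.03 over all genes tested. Since 14 of the 35 were under 1 RPKM in every ESC library and passed the filter through NP alone, they had to be higher there. The count and the median thus do not stand for all 44, and the shares over all genes tested also hold such genes. Of the 21 genes that reached 1 RPKM in an ESC library, 9 were called higher and 2 lower. Leaving out the second NP library, which stood apart in its mesenchyme markers as described below, 17 genes were called higher and 2 lower, without Wnt6 and Axin2. Groups whose libraries did not overlap were common over the whole table. Of 15089 genes at 1 RPKM in a library of either group, by levels scaled over all 9 libraries, 5408 lay above ESC in every NP library and 5454 below. Of the 35 Wnt pathway genes tested, the 14 included, 27 lay above and 4 below.

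Among the ligands, 9 of 13 tested were called higher and the other 4 were not called. Of these 13, 10 passed the filter through NP alone, and 2 of the 3 that reached 1 RPKM in an ESC library (Wnt5b, Wnt6 and Wnt7b) were called. Wnt1, a canonical ligand of the dorsal neural tube and the midbrain, had 1, 0 and 1 counts in the ESC libraries and 1517, 1224 and 1313 counts in the NP libraries, which is 30.4, 21.4 and 24.3 RPKM. It was nearly absent in the first group and among the 6 highest of the 44 genes in the second. The ratio of summed counts, scaled for depth, was 1970, with a 95% exact interval of 545 to 16270 that covers counting error only, and the adjusted p was 3.7e-07. Its neighbour Wnt10b, also a canonical ligand, had 2, 0 and 0 counts in ESC and 95, 154 and 92 counts in NP. That is a ratio of 166 with an interval of 45.5 to 1374 (adjusted p = 4.1e-05), at an NP level of only 2.14 ± 0.53 RPKM (SD, n = 3). Both ESC counts of Wnt10b were in library 1. Wnt4, which acts in kidney, gonad and neural tube development, stood at 0.468, 0.325 and 0.217 RPKM in ESC and at 7.66, 12.2 and 5.98 RPKM in NP. Wnt4 rose 25.7-fold, by a log2 fold change of 4.69 ± 0.37 (SE, adjusted p = 1.5e-05), with no overlap of the libraries.

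The second pair of neighbours also rose together. Wnt3a, a canonical ligand of the dorsal midline and the tailbud, stood at 0.426, 0.221 and 0.299 RPKM in ESC and at 1.88, 3.52 and 3.05 RPKM in NP, a rise of 3.16 ± 0.37 on the log2 scale (SE, adjusted p = 1.3e-04). Wnt9a stood at 0.486, 0.607 and 0.521 RPKM in ESC and at 6.498, 11.4 and 2.86 RPKM in NP, a rise of 3.68 ± 0.49 (adjusted p = 2.3e-04). For both, every NP library was above every ESC library, and the NP libraries of Wnt9a spread widely among themselves. In the pair of Wnt3 and Wnt9b, Wnt3 rose from 0.383, 0.428 and 0.215 RPKM to 2.65, 1.78 and 4.58 RPKM (log2 fold change 3.15 ± 0.45, adjusted p = 3.5e-04), while Wnt9b reached at most 0.195 RPKM in any of the 9 libraries and was not tested. In the pair of Wnt6 and Wnt10a, Wnt6 rose from 1.41, 1.44 and 0.810 RPKM to 7.33, 9.98 and 3.88 RPKM (2.54 ± 0.39, adjusted p = 5.4e-04), while Wnt10a stayed under 0.4 RPKM in all libraries.

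Wnt5b rose from 0.850, 1.08 and 0.685 RPKM to 6.499, 4.60 and 5.23 RPKM (log2 fold change 2.65 ± 0.26, adjusted p = 4.9e-05). Wnt7a, a ligand of the ventricular zone and the limb, stood at 0.201, 0.0445 and 0.0651 RPKM in ESC and at 3.62, 1.02 and 1.40 RPKM in NP, a rise of 4.28 ± 0.69 (adjusted p = 7.1e-04). Some of these calls depended on single libraries. Those of Wnt3 and Wnt9a were lost without any 1 ESC library or without NP library 1, that of Wnt3a without ESC library 3, that of Wnt6 without any 1 library except NP library 3, and that of Wnt7a without any 1 except NP library 2. The adjusted p-values of these 5 genes then reached up to 5.4e-03, with log2 fold changes between 2.20 and 5.14. That of Wnt7a moved most, to 3.55 without NP library 1 and 5.14 without ESC library 1. Tested and not called were Wnt2b, Wnt5a, Wnt7b and Wnt11. Wnt5a, the main ligand of the non-canonical branch, stood at 0.226, 0.457 and 0.174 RPKM in ESC and at 1.46, 3.33 and 0.631 RPKM in NP (log2 fold change 2.67 ± 0.62, adjusted p = 5.2e-03). It did not overlap between the groups, and its NP libraries spread widely. Wnt7b stood at 2.99, 2.84 and 2.72 RPKM in ESC and at 12.6, 3.38 and 4.99 RPKM in NP (1.30 ± 0.43, adjusted p = 0.027), so that the ligand most abundant in ESC was high mainly in 1 NP library. Wnt2b and Wnt11 had log2 fold changes of 2.67 ± 0.64 and 1.44 ± 0.43 (adjusted p = 6.3e-03 and 0.017). Of the 6 ligands not tested, Wnt8a, a ligand of the early embryo, was at 0.787, 0.538 and 0.213 RPKM in ESC and at 0.0273, 0.143 and 0.0505 RPKM in NP. Wnt2, Wnt8b, Wnt9b, Wnt10a and Wnt16 were at 0.4 RPKM or less in all 9 libraries, and Wnt2 had 0 counts in ESC and 7 in the 3 NP libraries together.

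All 10 Frizzled receptor genes were tested, and 6 were called higher and 1 lower in NP. Fzd5 was the highest Frizzled gene in ESC, at 26.6, 24.8 and 26.0 RPKM, and it was at 1.26, 1.45 and 1.18 RPKM in NP. Fzd5 fell 19.8-fold, with a log2 fold change of -4.31 ± 0.13 (SE, adjusted p = 3.0e-07), and every NP library was below every ESC library. Fzd2 went the other way, from 1.74, 1.62 and 2.28 RPKM to 43.2, 42.7 and 37.1 RPKM, a rise of 4.45 ± 0.17 (21.8-fold, adjusted p = 5.6e-07). Both receptors varied little among replicates in either group. Fzd1 rose 38.8-fold, from 0.175, 0.168 and 0.158 RPKM to 6.55, 7.38 and 5.55 RPKM (5.28 ± 0.22, adjusted p = 8.8e-07). Fzd8 rose from 1.45, 1.25 and 1.52 RPKM to 16.8, 16.9 and 15.0 RPKM (3.53 ± 0.15, adjusted p = 9.7e-07). These receptors span the membrane and act in both branches of the pathway.

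Fzd3, which guides axons and orients cells as part of the polarity branch, rose from 2.33, 2.27 and 2.01 RPKM to 19.98, 13.5 and 21.8 RPKM (log2 fold change 3.07 ± 0.21, adjusted p = 7.1e-06). Fzd10, a receptor of the dorsal neural tube, rose from 8.23, 8.46 and 6.53 RPKM to 38.3, 22.8 and 29.8 RPKM (1.98 ± 0.21, adjusted p = 6.3e-05). Fzd4 rose from 1.43, 1.47 and 1.33 RPKM to 4.27, 6.35 and 4.39 RPKM (1.83 ± 0.20, adjusted p = 7.3e-05). Fzd7, the receptor known for its part in stem cell self-renewal, was at 20.8, 20.9 and 23.6 RPKM in ESC and at 34.7, 32.0 and 23.5 RPKM in NP, which overlapped (0.47 ± 0.15, adjusted p = 0.023). Fzd6 and Fzd9 were not called either, with log2 fold changes of 1.23 ± 0.24 and 0.97 ± 0.30 (adjusted p = 1.9e-03 and 0.019).

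Of the secreted antagonists, 2 of 6 tested were called higher and 1 lower. Sfrp2, which binds Wnt proteins through a Frizzled-like domain, stood at 2.64, 2.07 and 3.26 RPKM in ESC and at 57.6, 34.7 and 42.9 RPKM in NP, a rise of 4.08 ± 0.25 on the log2 scale (17.0-fold, adjusted p = 4.5e-06), and was the highest of the 44 genes in NP. Frzb, of the same family, had 0, 6 and 1 counts in ESC and 307, 258 and 398 counts in NP, or 4.52, 3.31 and 5.42 RPKM (7.002 ± 0.64, adjusted p = 3.1e-05). The ESC counts of Frzb came mostly from library 2, without which the log2 fold change was 9.003. Notum, an enzyme that strips the lipid from Wnt proteins and a feedback target of the pathway, was at 17.9, 19.1 and 14.8 RPKM in ESC and at 1.21, 3.84 and 1.04 RPKM in NP. Notum fell 8.44-fold (log2 fold change -3.08 ± 0.46, adjusted p = 4.9e-04), and the call was lost when any 1 library other than NP library 2 was left out (adjusted p up to 2.6e-03). Without NP library 2 its log2 fold change was -3.95. Antisense transcripts overlap 29.4% (Notumos) and 8.72% (Myadml2os) of its exon bases. Since the reads were counted without strand, sense and antisense RNA cannot be told apart in those bases. Whether reads there were counted, or left out as shared between genes, was not checked. The same holds for 17.83% of the exon bases of Fzd5 (Gm38058), 16.12% of Sfrp2 (Gm26771), 13.75% of Lef1 (Gm43352) and 13.07% of Rspo3 (Gm48159), and for under 10% in Wnt5a, Wnt7b, Wnt11, Axin2 and Tcf7l1. Sfrp1 was high in both groups, at 21.4, 21.4 and 25.8 RPKM in ESC and at 47.0, 29.6 and 23.9 RPKM in NP, and was not called (0.55 ± 0.23, adjusted p = 0.063). Dkk3, a divergent relative of the Dickkopf inhibitors, stood at 3.07, 2.62 and 4.10 RPKM and at 10.2, 14.3 and 6.81 RPKM and narrowly missed the limit on p (1.68 ± 0.29, adjusted p = 1.0e-03). Sfrp5 had a log2 fold change of -0.51 ± 0.30 (adjusted p = 0.16). Dkk1, an inhibitor that binds LRP5 and LRP6, reached 0.411 RPKM at most in ESC and NP and was not tested.

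Lgr5, the R-spondin receptor that marks stem cells of the gut and other tissues, had 3, 2 and 3 counts in ESC and 914, 1550 and 1059 counts in NP, or 4.24, 6.27 and 4.55 RPKM. Its log2 fold change was 8.67 ± 0.30 (SE, adjusted p = 3.7e-07), the second largest of the 35 genes tested after Wnt1. The R-spondins are secreted proteins that keep Frizzled receptors on the cell surface, and neither of those tested was called. Rspo1 was at 3.16, 2.45 and 2.52 RPKM in ESC and at 3.34, 3.96 and 1.55 RPKM in NP (0.13 ± 0.35, adjusted p = 0.77). Rspo3 was at 0.0318, 0.0760 and 0.0668 RPKM in ESC and at 0.278, 1.20 and 0.228 RPKM in NP (3.24 ± 0.79, adjusted p = 6.7e-03), with no overlap, and it passed the filter through 1 NP library. DESeq2 called Rspo3 higher (adjusted p = 8.3e-04), and likewise Wnt2b, Wnt5a and Dkk3 (adjusted p = 2.3e-04, 2.3e-05 and 4.5e-07). Rspo2 stayed under 0.14 RPKM.

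Axin2, a scaffold of the destruction complex and the most widely used target gene of beta-catenin, stood at 3.82, 4.01 and 4.52 RPKM in ESC and at 10.5, 16.2 and 13.1 RPKM in NP. It rose 3.24-fold (log2 fold change 1.69 ± 0.18, adjusted p = 6.8e-05), with every NP library above every ESC library, and fell under the fold limit without NP library 2 (log2 fold change 1.51). The TCF/LEF factors were not called. Tcf7 was at 29.8, 30.7 and 43.9 RPKM in ESC and at 16.8, 37.0 and 20.1 RPKM in NP, which overlapped (-0.49 ± 0.29, adjusted p = 0.17). Tcf7l1, which acts mainly as a repressor in embryonic stem cells, was at 15.8, 16.8 and 14.9 RPKM in ESC and at 14.7, 9.44 and 6.92 RPKM in NP (-0.61 ± 0.24, adjusted p = 0.053). Lef1 was under 1 RPKM in all 6 libraries and was not tested.

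**Figure D3:**
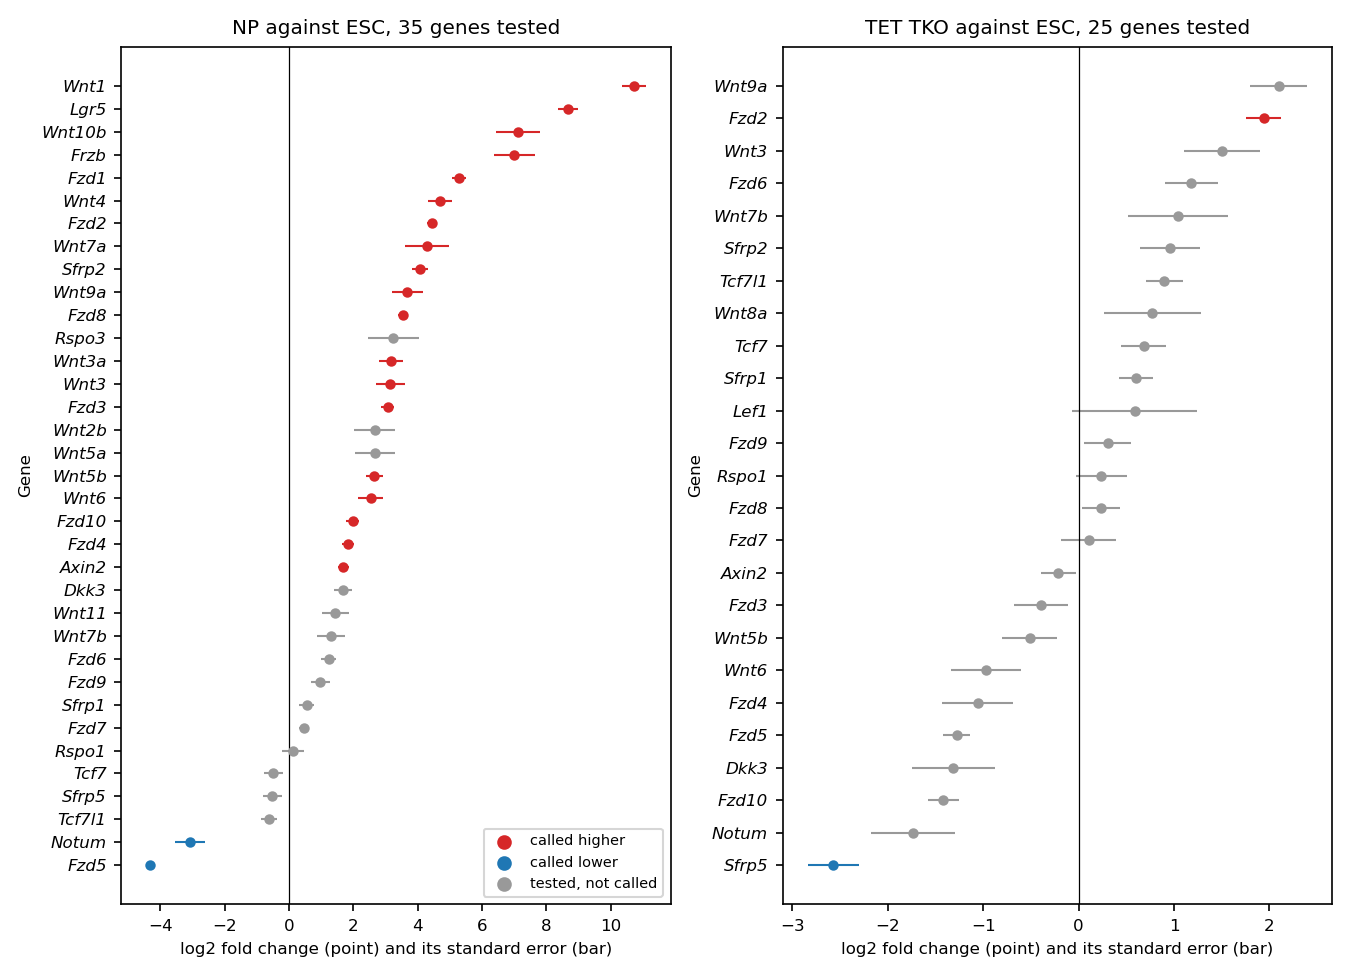
Log2 fold change (point) and its standard error (bar) of the genes tested, NP against ESC on the left (35 genes) and TET TKO against ESC on the right (25 genes), in the order of the change and on separate scales. Red points were called higher, blue points lower and grey points were tested and not called. In NP 19 points are red and 2 blue, in TET TKO 1 is red (Fzd2) and 1 blue (Sfrp5).

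The 3 NP libraries differed among themselves in their ligands. Of the 13 ligands that reached 1 RPKM in an NP library, 8 were highest in NP library 2 (Wnt2b, Wnt3a, Wnt4, Wnt5a, Wnt6, Wnt9a, Wnt10b and Wnt11), 4 in library 1 (Wnt1, Wnt5b, Wnt7a and Wnt7b) and 1 in library 3 (Wnt3). Markers of other cell types also differed among the libraries, and not all in the same order. Of 6 endoderm markers that reached 1 RPKM in an NP library, 4 were highest in library 3 and 1 in each of the others. The 2 trophoblast markers that did so were highest in library 1. Of 3 such neural crest markers, 2 were highest in library 1 and 1 in library 3. All 4 mesenchyme markers above 1 RPKM were highest in NP library 2 and lowest in library 3. Acta2, an actin of smooth muscle and myofibroblasts, stood at 41.4, 97.3 and 23.3 RPKM in the NP libraries. Col1a1, a fibrillar collagen, stood at 6.55, 17.5 and 1.497 RPKM, and Meox1, a factor of the somites, at 8.96, 24.1 and 4.87 RPKM. Of the 5 pluripotency markers that reached 1 RPKM in an NP library, 4 were also highest in library 2, among them Pou5f1 at 0.954, 1.87 and 0.490 RPKM. All 5 neuron markers were lowest there. Of the 8 neural progenitor markers, 7 were highest in library 1 and 7 were lowest in library 2. The neural progenitor markers summed to 256.9, 151.5 and 205.6 RPKM and the mesenchyme markers to 56.1, 130.6 and 28.4 RPKM. Lum, another mesenchyme marker, reached 0.254 RPKM at most. Prrx1, also a mesenchyme marker, was highest in library 1, at 0.517, 0.424 and 0.0995 RPKM. Mesp1 and T, which mark early mesoderm, reached 0.0651 and 0.287 RPKM at most in NP. The part of these cell types in the ligand levels was not tested.

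**Figure D4:**
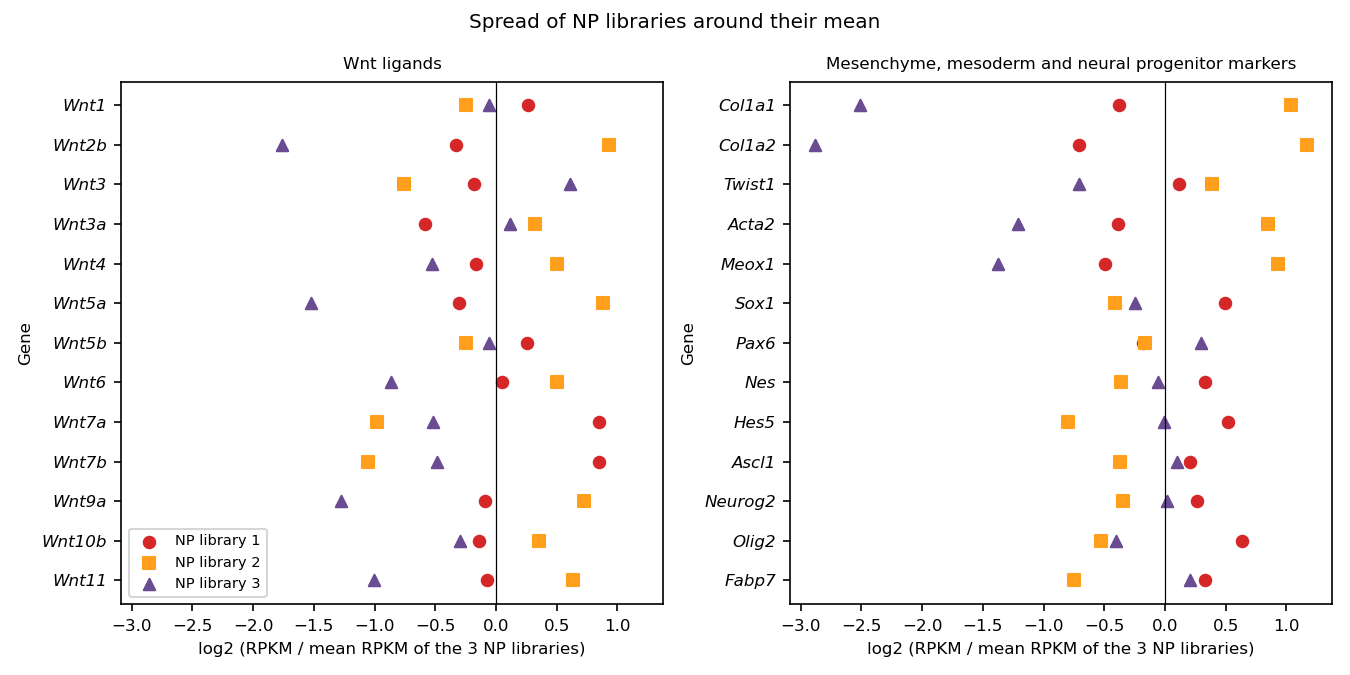
Level of each gene in each NP library as log2 of its RPKM over the mean of the 3 NP libraries, for the 13 Wnt ligands that reached 1 RPKM in an NP library (left) and for mesenchyme, mesoderm and neural progenitor markers at a mean of 1 RPKM or more (right). Circles are NP library 1, squares library 2 and triangles library 3. Squares lie farthest right for 8 ligands and for the mesenchyme markers and Meox1, and circles for Wnt1, Wnt5b, Wnt7a, Wnt7b and 7 of 8 neural progenitor markers.

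In TET TKO against ESC, 25 of the 44 genes were tested among 13939 genes, 1 was called higher, 1 was called lower, 23 were not called, and 19 were not tested. Over all genes tested, 0.847% were called higher and 1.29% lower, and the median log2 fold change was 0.24 over the 25 genes and 0.02 over all genes. Wnt3, Wnt8a, Wnt9a and Lef1 were under 1 RPKM in every ESC library, and these 4 passed the filter through TET TKO alone. They were thus picked for a high level there, and the median and counts do not stand for all 44. Of the 21 genes that reached 1 RPKM in an ESC library, 1 was called higher and 1 lower. Both comparisons share the ESC libraries, so their values are given side by side and were not related to each other. Fzd2, at 1.74, 1.62 and 2.28 RPKM in ESC, was at 7.23, 7.81 and 6.85 RPKM in TET TKO, a rise of 1.94 ± 0.18 on the log2 scale (3.83-fold, adjusted p = 4.3e-04). Its 3 TET TKO libraries all lay above ESC and far below the 37.1 to 43.2 RPKM of NP. Sfrp5, an antagonist of the secreted Frizzled-related family, was at 4.52, 5.42 and 4.63 RPKM in ESC and at 1.08, 0.625 and 0.768 RPKM in TET TKO, and it fell 5.94-fold (-2.57 ± 0.27, adjusted p = 6.5e-04). In NP it stood at 4.21, 3.98 and 1.99 RPKM and was not called. The call of Fzd2 was lost when any 1 library other than TET TKO library 3 was left out (adjusted p up to 4.9e-03), and that of Sfrp5 when any 1 of the 6 was left out (up to 5.0e-03), with log2 fold changes between 1.84 and 2.11 and between -2.81 and -2.40. Both calls were made at the depth of ESC, when the TET TKO counts were thinned.

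Several genes lay apart from ESC in all 3 TET TKO libraries without a call. This was common over the whole table. Of 14042 genes at 1 RPKM in a library of either group, by levels scaled over all 9 libraries, 3682 lay above ESC and 3453 below. Of the 25 Wnt pathway genes tested, the 4 that passed the filter through TET TKO alone included, 8 lay above and 7 below. Fzd5 was at 13.1, 9.26 and 9.92 RPKM in TET TKO, below the 24.8 to 26.6 RPKM of ESC, and passed the limit on p but not on fold (log2 fold change -1.28 ± 0.14, adjusted p = 8.2e-04). Fzd10 was alike, at 2.70, 3.14 and 2.94 RPKM against 6.53 to 8.46 RPKM (-1.42 ± 0.16, adjusted p = 9.1e-04). Wnt9a had the largest increase of the 25 genes, from 0.486 to 0.607 RPKM in ESC to 2.00, 1.77 and 3.21 RPKM (2.10 ± 0.30). It passed the limit on fold but not on p (adjusted p = 2.2e-03), and it is 1 of the 4 that entered the test through TET TKO alone. Its neighbour Wnt3a was at 0.212, 0.614 and 0.601 RPKM, which overlapped with ESC, and was not tested. Fzd1 was at 0.919, 0.741 and 0.924 RPKM, above the 0.158 to 0.175 RPKM of ESC. It stayed under the filter, and was called by edgeR when filterByExpr took the place of that filter (2.39 ± 0.27, adjusted p = 7.1e-04).

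Notum was at 7.62, 6.19 and 1.94 RPKM in TET TKO, below ESC (log2 fold change -1.73 ± 0.44, adjusted p = 0.020). Tcf7l1 was at 22.7, 39.2 and 27.6 RPKM, above ESC (0.90 ± 0.19, adjusted p = 0.011). Tcf7, the highest of the 44 genes there, was at 70.3, 39.5 and 59.9 RPKM and overlapped with ESC. The 23 genes without a call had log2 fold changes from -1.73 to 2.10. Several genes spread widely among the 3 TET TKO libraries. Wnt7b was at 1.75, 6.02 and 10.01 RPKM, Lef1 at 1.81, 1.02 and 0.188 RPKM, and Dkk1 at 0.0769, 0.220 and 0.684 RPKM, and none of them was called or, for Dkk1, tested. Of the 4 genes with the largest log2 fold changes in NP, Wnt1 had 0, 1 and 1 counts in the deeper TET TKO libraries, Lgr5 13, 16 and 5, Wnt10b 16, 15 and 35, and Frzb 4, 7 and 2. Wnt10b alone of these was above ESC in all 3 libraries, at 0.0853, 0.0857 and 0.167 RPKM, and all 4 were under the filter. Axin2 was at 4.26, 3.75 and 2.79 RPKM and overlapped with ESC (-0.21 ± 0.18, adjusted p = 0.40). The 7 pluripotency markers summed to 738.8 to 967.1 RPKM in TET TKO and 1312 to 1362 RPKM in ESC, and Zfp42 among them was called lower. Dppa3, another of the 7, went the other way, from 6.60, 5.59 and 13.2 RPKM in ESC to 56.8, 74.2 and 124.5 RPKM, and was not called (3.31 ± 0.42, adjusted p = 1.3e-03). The part of this difference in the values above was not tested.

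A further 63 genes of the pathway, listed by role, give the surroundings of the 44. In NP 56 of them were tested, 18 were called higher and 3 lower, with a median log2 fold change of 0.69. Over all genes tested, 12.4% were called higher and 9.98% lower. Among those called higher, Rnf43, Sost, Sostdc1, Apc2, Pygo1, Nkd1, Sp8 and Prickle2 were under 1 RPKM in every ESC library. They passed the filter through NP alone and had to be higher there, so the count and the median do not stand for all 63. In TET TKO 48 were tested and 1 was called, lower, with a median of 0.03. Over all genes tested there, 0.847% were called higher and 1.29% lower. Of the export genes, Wls, which carries Wnt proteins to the cell surface, rose from 0.893, 1.09 and 0.681 RPKM to 14.1, 18.5 and 17.7 RPKM in NP (4.25 ± 0.21, adjusted p = 1.4e-06). Porcn, which attaches the lipid to them, fell from 22.1, 21.7 and 16.8 RPKM to 7.70, 6.24 and 5.29 RPKM (-1.65 ± 0.18, adjusted p = 8.2e-05). These export genes thus moved in opposite directions.

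Of 7 co-receptor genes, Lrp4 alone was called, higher in NP. Lrp5 and Lrp6 had log2 fold changes of 0.18 ± 0.13 and 0.44 ± 0.16 and were not called. Of the R-spondin branch, Rnf43, a ligase that removes Frizzled receptors, rose from 0.157, 0.186 and 0.227 RPKM to 2.42, 2.60 and 1.92 RPKM in NP (3.60 ± 0.26, adjusted p = 8.9e-06), while Lgr4 was at 23.7 to 31.9 RPKM in ESC and 24.8 to 29.9 RPKM in NP (0.05 ± 0.15, adjusted p = 0.77). Of 12 other extracellular antagonists, Sost, Sostdc1, Draxin and Tpbg were called higher in NP and Sfrp4 lower (-4.20 ± 0.31, adjusted p = 1.1e-05). Draxin, which also guides axons, was the gene called lower in TET TKO, at 0.268, 0.198 and 0.240 RPKM against 1.58, 1.78 and 1.17 RPKM in ESC (-2.69 ± 0.26, adjusted p = 5.2e-04), and stood at 8.47, 9.87 and 11.5 RPKM in NP.

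Inside the cell, of 11 genes of the destruction complex and the Dishevelled family, Apc2 alone was called in NP (3.68 ± 0.36, adjusted p = 4.9e-05), and Ctnnb1, which encodes beta-catenin, was at 164.0 to 182.3 RPKM in ESC and 199.3 to 226.1 RPKM in NP (0.31 ± 0.11, adjusted p = 0.032). Of 10 nuclear partners, Tcf7l2, the remaining TCF factor, rose from 1.04, 1.11 and 0.823 RPKM to 5.94, 3.71 and 5.37 RPKM (2.34 ± 0.22, adjusted p = 3.8e-05), Pygo1 rose, and the corepressor gene Tle4 fell (-2.44 ± 0.19, adjusted p = 1.4e-05). Of 9 common target genes, Nkd1, Sp8 and Sp5 were called higher in NP. Nkd1, a feedback inhibitor, rose from 0.721, 0.516 and 0.843 RPKM to 14.3, 11.6 and 7.71 RPKM (4.01 ± 0.29, adjusted p = 9.6e-06). The others, among them Ccnd1 and Myc, were not called (0.73 ± 0.17 and -0.51 ± 0.33, adjusted p = 4.6e-03 and 0.21). T and Cdx1 were also below 0 (-1.85 ± 0.48 and -0.65 ± 0.53, adjusted p = 9.3e-03 and 0.30). In TET TKO 7 of the 9 were tested and none was called, with 3 above 0 and 4 below. The lowest were Cdx1 and T (-2.22 ± 0.50 and -2.08 ± 0.63, adjusted p = 0.013 and 0.037). Tnfrsf19 passed the limit on p but not on fold (-1.425 ± 0.139, adjusted p = 5.2e-04). Of 7 genes of planar polarity, 5 were called higher in NP, and the largest change was that of Celsr2, an adhesion cadherin, from 1.79, 1.95 and 1.91 RPKM to 67.1, 21.6 and 41.1 RPKM (4.53 ± 0.39, adjusted p = 2.4e-05).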

How the data were processed

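RNA-seq was analysed for 9 libraries, 3 biological replicates each of ESC, NP and TET TKO. The authors aligned single-end reads from a stranded kit to GRCm38 with STAR 2.6.1b (versions from the submitters' processing notes) and deposited raw counts per gene from featureCounts (Ensembl 89, without strand). Here, library sizes were scaled by TMM on the tested genes, groups were compared in edgeR 4.0.16 (R 4.3.3) by its quasi-likelihood test, p-values were adjusted by Benjamini-Hochberg over all genes tested, and standard errors were taken as the log2 fold change over the root of F. The adjusted p limit (0.001) and the fold limit (3) follow the study's methods. Genes were kept at 1 RPKM in at least 1 of the 6 libraries compared. The methods word their RPKM filter as discarding genes above that level, which was read as a slip. RPKM used the deposited gene lengths. The levels given used TMM over all 9 libraries and the filter used TMM over the 2 groups compared, so their gene totals differ slightly. Named are all 44 genes, Tet1 to Tet3, neighbours and overlapping genes, and called or defining genes of the pathway and marker lists. The 44 genes and the lists were chosen with earlier results of these data known. The fit was tested on simulated data with the dispersions of ESC, in which only genes that reached 1 RPKM in an ESC library were changed. That test does not cover the spread among NP or TET TKO libraries, nor genes nearly absent in ESC. Alternatives were DESeq2 1.42.0, RLE or total-count scaling, 2 other filters, other limits, all 3 groups in 1 fit, a replicate block, thinning, and each library left out. TMM was first run over all genes. The scaling on tested genes was chosen after the data were seen, because the first shifted the median of TET TKO, and TMM over all genes became an alternative. Python 3.11.15 with numpy 2.4.6, pandas 2.3.3, scipy 1.17.1 and matplotlib 3.10.9 was used. Depth limits the low genes: NP to ESC ratios over 1 to 3 summed ESC counts are given with counting intervals. The methylation tables were not used here.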

Additional observations from a re-analysis of the deposited data

How the results depend on the processing

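Of 19 genes called higher in NP, 18 to 19 stayed called under every alternative that kept all libraries, and the count ranged from 18 (Fzd4 lost with all 3 groups in 1 fit) to 28. Leaving out 1 library gave 14 to 20 higher and 1 to 2 lower (Notum lost). Over all genes, the NP counts of 1879 higher and 1516 lower became 4944 and 4794 at an adjusted p under 0.05 with no fold limit, 2588 lower with no filter, and 1386 to 1801 and 1085 to 1583 with 1 library left out. In TET TKO, 1 higher and 1 lower became 2 and 2 with DESeq2 (Wnt9a and Notum added), 3 and 2 with no filter, 2 higher with filterByExpr, 7 and 4 at an adjusted p under 0.05 with no fold limit, and 3 lower at a fold of 2. Leaving out 1 library gave 0 to 1 higher (1 only without TET TKO replicate 3) and 0 lower. Over all genes the TET TKO counts of 118 higher and 180 lower became 404 and 506 with DESeq2, 574 and 689 with no filter, 2450 and 2227 with no fold limit, and 204 higher at a fold of 2. With 1 library left out they were 12 to 115 and 38 to 179, fewest without ESC replicate 1 and lower by over 1.5 times on leaving out any 1 library other than TET TKO replicate 3. TMM over all genes moved the median log2 fold change of TET TKO from 0.02 to 0.12 and changed no call of the 44 genes there. By CPM, 30 in place of 19 genes reached 1 in TET TKO.

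The labels number the replicates and name no pairing. Deviations of same-numbered libraries correlated at -0.063, 0.015 and -0.135 for NP and at -0.089, 0.338 and 0.236 for TET TKO. Those of differently numbered libraries correlated at -0.103 to 0.127 for NP and at -0.421 to 0.203 for TET TKO. With 3 libraries per group, these values cannot settle whether the numbers pair the samples. A replicate block gave 20 higher (Wnt5a added) and 2 lower in NP and 1 and 1 in TET TKO. Over all genes in TET TKO it gave 255 and 334 in place of 118 and 180. Leaving out 1 library turned 3 uncalled log2 fold changes. Rspo1 in NP ranged from -0.16 (without NP replicate 2) to 0.43, and in TET TKO Fzd7 ranged from -0.35 to 0.33 and Lef1 from -0.15 to 1.08, both lowest without TET TKO replicate 1.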
